A study of Mus musculus with 17 samples.

Results

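The histone lysine methyltransferase and demethylase genes described here were the 59 protein-coding genes, of 21887 on chromosomes 1 to 19, X and Y of the mm10 mouse gene table, whose symbols belong to the Kmt2, Kmt5, Setd, Nsd, Ezh, Ehmt, Suv39h, Prdm or Kdm1 to Kdm8 families. A gene end was counted as occupied when the summit of a deposited CUT&RUN peak lay within 500 bp of either outer end of the gene; where several did, the peak with the lowest p was taken. CUT&RUN releases the DNA next to an antibody-bound protein with a tethered nuclease, so a peak is read as a place where the target was found on chromatin. The antibodies were against STAG2, a subunit of the cohesin ring that holds and loops chromosomes, LIN54, which contacts DNA within DREAM, the repressor of cell cycle genes in quiescence, and p130, the pocket protein of the same complex. All cells were urothelium, the lining of the bladder, peeled from mice 1 week after tamoxifen (TMX) induction, with about 500000 cells per experiment. Stag2-KO urothelium gave 2 STAG2, 2 LIN54 and 3 p130 libraries, and Stag2-WT urothelium, which received the same induction, gave 2 STAG2, 3 LIN54 and 3 p130 libraries. The STAG2 antibody gave peaks in Stag2-KO libraries too, and these are described below as called. Whether they mark STAG2 protein was not tested. The labels give neither the driver of recombination nor how many mice stand behind a library, although they number the replicates as biological. The STAG2 and LIN54 libraries were all in batch 1 of the labels, p130-WT replicate 1 was the only library of batch 2, and batch 3 held the remaining 5 p130 libraries.

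Lysine methylation of histone tails marks the state of a gene: methylation of H3K4 goes with active promoters and enhancers, that of H3K36 with transcribed gene bodies, and that of H3K9, H3K27 and H4K20 with silent or compacted chromatin. SET domain proteins write these marks, and flavin-dependent KDM1 or iron-dependent JmjC enzymes erase them; most PR domain proteins of the PRDM family are zinc finger transcription factors. Several of the genes, among them KDM6A, KMT2D, KMT2C and KMT2A, are recurrently mutated in human bladder cancer, as is STAG2.

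Each library held between 286079 and 539191 peaks at the authors' p of up to 0.05, of which between 316 and 25859 reached a q of 0.01, the stricter list given beside the deposited one below. The p130 lists were the poorest at q 0.01, with 316 to 896 peaks. Fold enrichment is the authors' value at the summit over the local background of the same library. It is given per library and was not tested between genotypes, because the lists are not scaled to each other. The median fold over all genes with a peak was 2.48 and 2.67 in the STAG2-KO libraries against 3.54 and 2.99 in STAG2-WT, and 3.31 and 3.25 in LIN54-KO against 2.72, 2.97 and 2.62 in LIN54-WT, so folds over all genes were themselves lower in KO with STAG2 and higher in KO with LIN54, without overlap. In p130-KO it was 2.43, 2.38 and 2.34, against 2.39, 2.62 and 2.46 in p130-WT. Read depth is not given in the files; fragment counts at summits could be recovered from fold and p and are given for the leading genes. The peaks on X made up 0.259% and 0.436% of those in the STAG2-KO libraries against 1.00% and 2.42% in STAG2-WT, 0.486% and 0.744% in LIN54-KO against 3.16% to 5.09% in LIN54-WT, and 0.310% to 0.330% in p130-KO against 0.440%, 0.465% and, in replicate 1, 5.98% in p130-WT. X-linked genes are therefore described apart. At q 0.01, 12 of 18 urothelial marker genes and 5 of 20 markers of fibroblasts, muscle, blood and vessels had a peak at an end in at least 1 library, against 41.3% of all protein-coding genes. Among the urothelial markers Upk2, a urothelial plaque protein, led with 7 libraries, and Upk1b, Krt5, Krt20, Trp63, Foxa1 and Pparg had none. A peak at an end is not a measure of expression.

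Occupancy of the 59 genes was broad at the deposited threshold and selective at q 0.01. Every one of the 59 had a deposited peak at an end in at least 1 of the 15 libraries, as did 93.4% of all protein-coding genes. At q 0.01, 36 of 59 (61.0%) had a peak in at least 1 library, against 41.3% of all protein-coding genes, and 23 had none. The STAG2 antibody marked 33 of the 59 in at least 1 library (55.9%, against 35.3% of all genes), the LIN54 antibody 27 (45.8%, against 27.6%) and the p130 antibody 7 (11.9%, against 4.57%). These are shares set side by side, and the family was not tested against other genes. CpG-rich promoters were common among the 59: 44 had a start site in the RefSeq promoter table, and their 60 promoters held a median of 25 CpG per 300 bases, against 13 over 21263 promoters of all genes. The part of promoter composition in these shares was not tested.

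**Figure D1:**
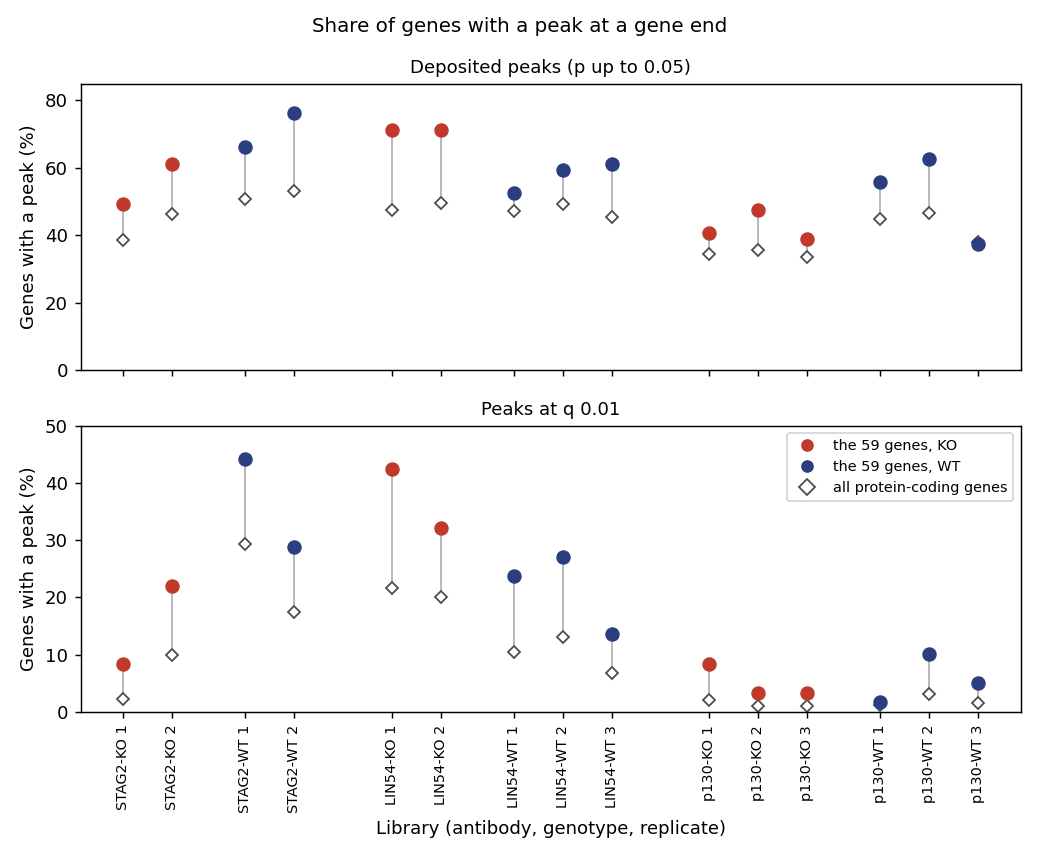
Percentage of genes with a peak summit within 500 bp of a gene end in each of the 15 libraries, for the deposited lists (top) and at q 0.01 (bottom); filled circles are the 59 histone methylation genes (red, KO; blue, WT) and open diamonds all 21887 protein-coding genes. The circle lies above the diamond in 14 of 15 libraries for the deposited lists, the exception being p130-WT replicate 3, and in 15 of 15 at q 0.01.

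By family, 6 of 8 Kmt, 2 of 2 Ezh, 2 of 2 Ehmt, 2 of 3 Nsd, 1 of 2 Suv39h, 6 of 10 Setd, 11 of 18 Kdm and 6 of 14 Prdm genes had a q 0.01 peak in at least 1 library, against 41.3% of all genes. Of the 15 libraries, Kmt5c was marked at q 0.01 in all 15, Kdm1b and Kdm3a in 10, Kdm4a, Kmt2e, Kmt5a and Ezh2 in 9, Kmt2b and Setd3 in 8 and Kdm4b in 7. Among the 28 marked genes whose strand is known, 117 of 121 q 0.01 summits were at the outer 5′ end. These include 2 summits of Setd5 and 1 of Prdm8, whose outer 5′ ends lie 27673 and 13666 bp from their RefSeq start sites. The genes with deposited peaks in the fewest libraries were Kdm6a and Prdm14, with 2 each, and Kdm4c, Prdm10 and Prdm11, with 3 each; for Kdm6a and Prdm10 the annotated outer end is not the start site, as described below, and Kdm4c has a second start site inside the gene, where it had deposited peaks in 10 libraries and reached q 0.01 in LIN54-KO replicate 2, at 4.19, and STAG2-WT replicate 1, at 3.26.

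**Figure D2:**
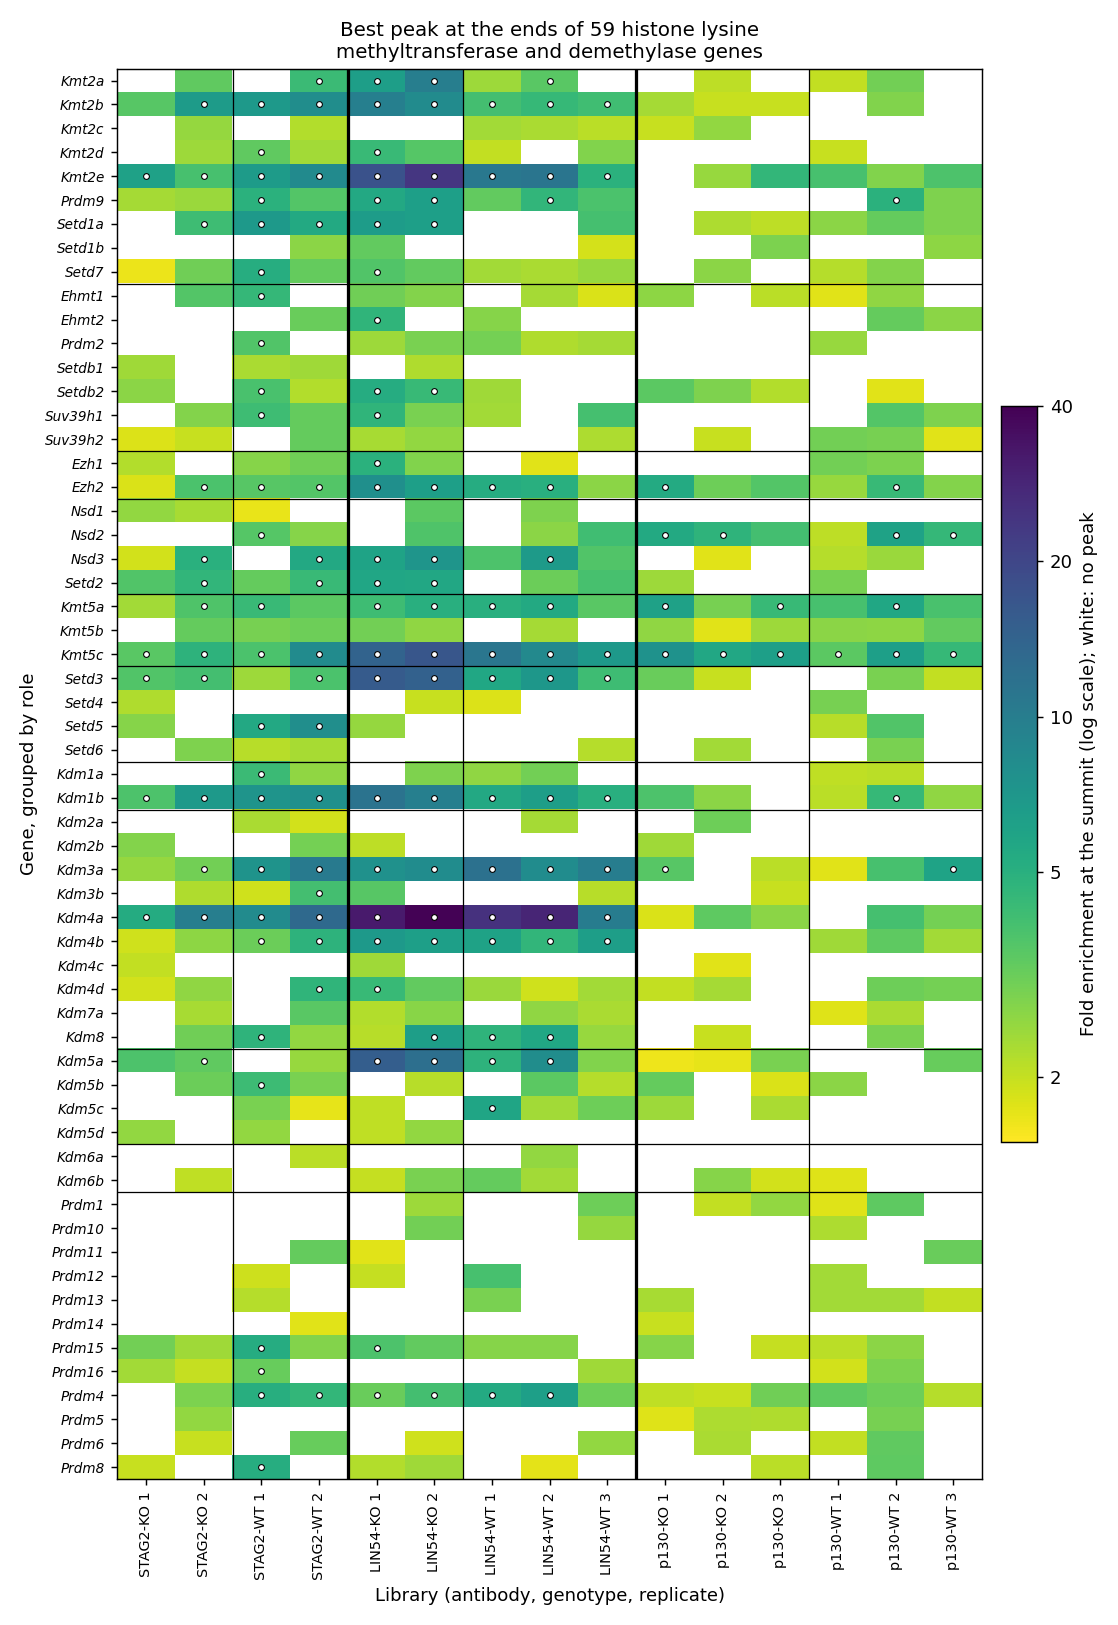
Fold enrichment of the best peak at either end of the 59 genes (rows, grouped by role) in the 15 libraries (columns, KO left of WT within each antibody), on a log colour scale; white cells have no deposited peak and white dots mark peaks at q 0.01. Kmt5c carries a dot in all 15 columns, Kdm4a has the darkest cells with LIN54 and no dot with p130.

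The promoters of 4 genes that the results turn on, and whose peaks lay at or next to them, are shown 5′ to 3′ on the strand of the gene, from 250 bases before to 50 bases after the RefSeq start site (GRCm38.p6). Capitals mark exact matches to an E2F-type element (TTTCCCGC, TTTCGCGC, TTTGCCGC or TTTGGCGC, the kind of site through which p130 reaches DNA with its E2F partner) or to a cell cycle homology region, CHR (TTTGAA or TTCGAA, the kind of site LIN54 binds), on either strand. No match of one kind can overlap a match of the other. Positions count the start site as 0.
Kmt5c, chr7:4739877-4740176, plus strand: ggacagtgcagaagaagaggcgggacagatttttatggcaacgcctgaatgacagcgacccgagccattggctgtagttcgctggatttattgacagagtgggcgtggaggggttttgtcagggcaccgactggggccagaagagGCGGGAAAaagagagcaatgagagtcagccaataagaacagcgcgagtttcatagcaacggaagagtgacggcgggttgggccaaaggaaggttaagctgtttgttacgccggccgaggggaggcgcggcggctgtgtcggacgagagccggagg
Kmt5a, chr5:124439680-124439979, plus strand: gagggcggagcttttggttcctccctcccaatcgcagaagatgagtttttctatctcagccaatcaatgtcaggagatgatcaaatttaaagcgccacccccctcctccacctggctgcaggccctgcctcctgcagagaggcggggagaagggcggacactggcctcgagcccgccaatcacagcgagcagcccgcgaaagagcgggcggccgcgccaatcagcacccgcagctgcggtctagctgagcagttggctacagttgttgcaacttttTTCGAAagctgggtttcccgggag
Ezh2, chr6:47594981-47595280, minus strand: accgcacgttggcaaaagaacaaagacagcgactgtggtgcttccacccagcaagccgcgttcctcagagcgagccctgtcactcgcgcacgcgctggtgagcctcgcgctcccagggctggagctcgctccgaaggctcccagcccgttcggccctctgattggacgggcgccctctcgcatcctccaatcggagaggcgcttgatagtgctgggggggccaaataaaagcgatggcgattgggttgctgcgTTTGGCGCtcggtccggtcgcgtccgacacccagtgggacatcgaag
Kdm4a, chr4:118179994-118180293, minus strand: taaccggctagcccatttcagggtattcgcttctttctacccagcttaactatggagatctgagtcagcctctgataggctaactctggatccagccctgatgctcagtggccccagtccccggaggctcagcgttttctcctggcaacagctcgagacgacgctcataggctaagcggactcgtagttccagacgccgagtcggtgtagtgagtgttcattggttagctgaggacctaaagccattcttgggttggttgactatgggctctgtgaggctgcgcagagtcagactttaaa
Kmt5c and Ezh2 each held an E2F-type match, at position -105 and position 3, Kmt5a held a CHR match at position 26, and Kdm4a held neither. Over the 60 promoters of the family, 4 (6.67%) held an E2F-type match, against 2.85% of 21263 promoters, and 6 (10.0%) held a CHR match, against 17.6%. The other E2F-type matches were in Prdm4 and Suv39h1, and the other CHR matches in Kdm1b, Kdm8, Kmt5b, Setd6 and Suv39h2. A match is a description of these letters, and its absence says only that they are not in the window.

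The writers of H4K20 methylation included the single gene of the family marked by all 3 antibodies in every library. Kmt5c, which encodes the enzyme that places di- and trimethyl marks on H4K20 in heterochromatin, was 1 of 31 protein-coding genes (0.142%) with a q 0.01 peak in all 15 libraries. With the LIN54 antibody its fold enrichment was 14 and 16.7 in KO libraries, against 11, 8.55 and 6.77 in WT libraries, so both KO values lay above all WT values. Its rank by p within a library, as a percentile of the genes with a peak, overlapped between genotypes. It was 0.755 to 1.34 in LIN54-KO against 0.939 to 1.66 in LIN54-WT. With the p130 antibody the fold was 7.47, 5.60 and 6.27 in KO libraries, against 3.44, 6.23 and 4.45 in WT libraries, and the genotypes overlapped. With the STAG2 antibody it was 3.47 and 4.78 in KO libraries, against 3.82 and 8.16 in WT libraries, again with overlap. Behind the p130 values stood 40, 33 and 32 fragments at the summit in KO libraries, against 23, 36 and 27 in WT libraries. The 15 summits lay 95 to 376 bp upstream of the outer end of Kmt5c, over the neighbouring lncRNA gene Gm42369 (chr7:4738990-4740080), which ends within the promoter shown above; the peaks cannot be assigned to either gene.

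Kmt5a, the H4K20 monomethyltransferase whose protein rises and falls through the cell cycle, had a deposited peak in all 15 libraries and a q 0.01 peak in 9. Its p130 fold was 6.09, 2.96 and 4.38 in KO libraries, of which replicates 1 and 3 reached q 0.01, against 3.91, 5.67 and 3.83 in WT libraries, of which replicate 2 did. Its LIN54 fold was 4.15 and 5.03 in KO libraries, against 5.02, 5.46 and 3.49 in WT libraries, the last of which missed q 0.01. The genotypes overlapped with both antibodies. Kmt5b, the second di- and trimethyl writer, had a deposited peak at an end in 12 libraries and none at q 0.01. At its second RefSeq start site, however, it reached q 0.01 in both LIN54-KO libraries, with folds of 4.30 and 4.32.

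Among H3K27 methyltransferases, Ezh2, the catalytic subunit of PRC2 that is abundant in dividing cells, was marked by all 3 antibodies, whereas Ezh1, its counterpart in resting tissue, reached q 0.01 in 1 LIN54-KO library with a fold of 4.94. The p130 fold at Ezh2 was 5.40, 3.09 and 3.63 in KO libraries, against 2.49, 4.37 and 2.76 in WT libraries; p130-KO replicate 1 and p130-WT replicate 2 reached q 0.01. The LIN54 fold was 7.78 and 6.23 in KO libraries, against 5.25, 5.03 and 2.64 in WT libraries, so that the KO values lay above the WT values. The LIN54 rank percentiles overlapped, at 10.7 to 15.2 in KO against 9.55 to 42.5 in WT. The STAG2 fold was 1.81 and 3.79 in KO libraries, against 3.50 and 3.61 in WT libraries. The 9 summits at q 0.01 lay within 167 bp of the outer end, and all 9 were also within 500 bp of the end of the lncRNA gene F830010H11Rik, which overlaps that end. Of 9 PRC2 partners listed, 6 had a q 0.01 peak in at least 1 library, against 41.3% of all genes. Rbbp4, the histone-binding WD40 subunit, and Jarid2, a DNA-contacting cofactor, led with 9 libraries each, and Rbbp7, Mtf2 and Aebp2 had none; Rbbp4 was marked with all 3 antibodies and Jarid2 with STAG2 and LIN54.

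The H3K36 methyltransferases differed in which antibody marked them. Nsd2, which writes dimethyl H3K36, had its best ranks with p130, where its fold was 5.44, 4.71 and 4 in KO libraries, against 2.09, 6.07 and 4.49 in WT libraries. Replicates 1 and 2 of KO and replicates 2 and 3 of WT reached q 0.01, and p130-WT replicate 1, the library of batch 2, was the lowest. With LIN54 Nsd2 had a peak in 3 of 5 libraries, none at q 0.01. With STAG2 it had none in KO and folds of 3.58 and 2.73 in WT, of which replicate 1, at 3.58, reached q 0.01. All 5 q 0.01 summits also lay at the end of the predicted gene Gm52782. Nsd3 showed the other arrangement: its LIN54 fold was 5.98 and 7.24 in KO libraries, against 3.73, 6.70 and 3.66 in WT libraries, and no p130 peak reached q 0.01. Setd2, which trimethylates H3K36, is described with the genotype comparison, and Nsd1 had no q 0.01 peak.

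Of 7 H3K9 methyltransferase genes, 5 had a q 0.01 peak in at least 1 library, against 41.3% of all genes. None of the 7 had one in more than 3 libraries and none with p130. Suv39h1, which trimethylates H3K9 and is encoded on X, reached q 0.01 in STAG2-WT replicate 1, with a fold of 4.18, and in LIN54-KO replicate 1, with 4.67. Suv39h2, its autosomal paralogue, had deposited peaks in 10 libraries and none at q 0.01, as did Setdb1 in 4. Ehmt1 and Ehmt2, the GLP and G9a writers of dimethyl H3K9, each had 1 q 0.01 library, STAG2-WT replicate 1 at 4.48 and LIN54-KO replicate 1 at 4.64. Setdb2 had 3, and all 3 of its summits were shared with the ends of Cab39l and Gm45935.

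Of 9 genes in the H3K4 group, 7 had a q 0.01 peak in at least 1 library, against 41.3% of all genes, and the strongest were Kmt2e and Kmt2b. Kmt2e encodes MLL5, a SET domain protein whose methyltransferase activity is in doubt. Its LIN54 fold was 17.6 and 23.7 in KO libraries, against 10.8, 11.2 and 4.90 in WT libraries, and the genotypes did not overlap. Its STAG2 fold was 6.12 and 3.89 in KO libraries, against 6.57 and 8.28 in WT libraries, and none of its 5 deposited p130 peaks reached q 0.01. Kmt2b, which writes H3K4 methylation at promoters, had a LIN54 fold of 9.64 and 8.20 in KO libraries, against 4, 4.46 and 4.13 in WT libraries. Its STAG2 fold was 3.53 and 6.63 in KO libraries, against 6.83 and 8.02 in WT libraries. At Kmt2b and Kmt2e the KO values were thus above the WT values with LIN54 and the order was the opposite with STAG2, as it was for the medians over all genes given above. The LIN54 rank percentiles overlapped, at 0.911 to 2.33 in KO against 2.19 to 7.32 in WT for Kmt2e. For Kmt2b they were 7.65 to 10.6 in KO against 10.3 to 17.6 in WT. The STAG2 rank percentiles overlapped too. For Kmt2e they were 1.23 to 19.3 in KO against 3.9 to 5.12 in WT, and for Kmt2b 1.12 to 7.45 against 2.12 to 3.22. Of the 8 q 0.01 summits at Kmt2b, 7 also lay within 500 bp of an end of the microRNA gene Mir3569, 5 of the lncRNA gene Gm32082 and 3 of Zbtb32.

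Setd1b, Prdm9 and Setd7 belong to the same H3K4 group. Setd1b, a catalytic subunit of the main H3K4 trimethylation complex, had no q 0.01 peak within 500 bp of its ends. A peak 762 to 872 bp outside its nearer end was, however, called at q 0.01 in all 5 LIN54 libraries, with folds of 19.4 and 19.5 in KO against 14.6, 17.9 and 8.96 in WT, and with STAG2 in KO replicate 2 at 3.93 and in WT replicate 2 at 6.85. Ends of neighbouring genes were looked up only for q 0.01 summits within 500 bp of an outer end. They were not looked up for this peak or for others described below outside that window. Prdm9, known for placing H3K4 marks at meiotic recombination sites, reached q 0.01 in 5 libraries, among them both LIN54-KO libraries at 5.50 and 6.30 and p130-WT replicate 2 at 4.92. Setd7, a monomethyl H3K4 writer, had deposited peaks in 12 libraries and reached q 0.01 in LIN54-KO replicate 1, at 3.66, and STAG2-WT replicate 1, at 5.14. Of 10 COMPASS and MLL partners listed, 7 had a q 0.01 peak in at least 1 library, against 41.3% of all genes. Men1, the menin tether of MLL proteins, led with 7 libraries, and Ash2l, Dpy30 and Ncoa6 had none.

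**Figure D3:**
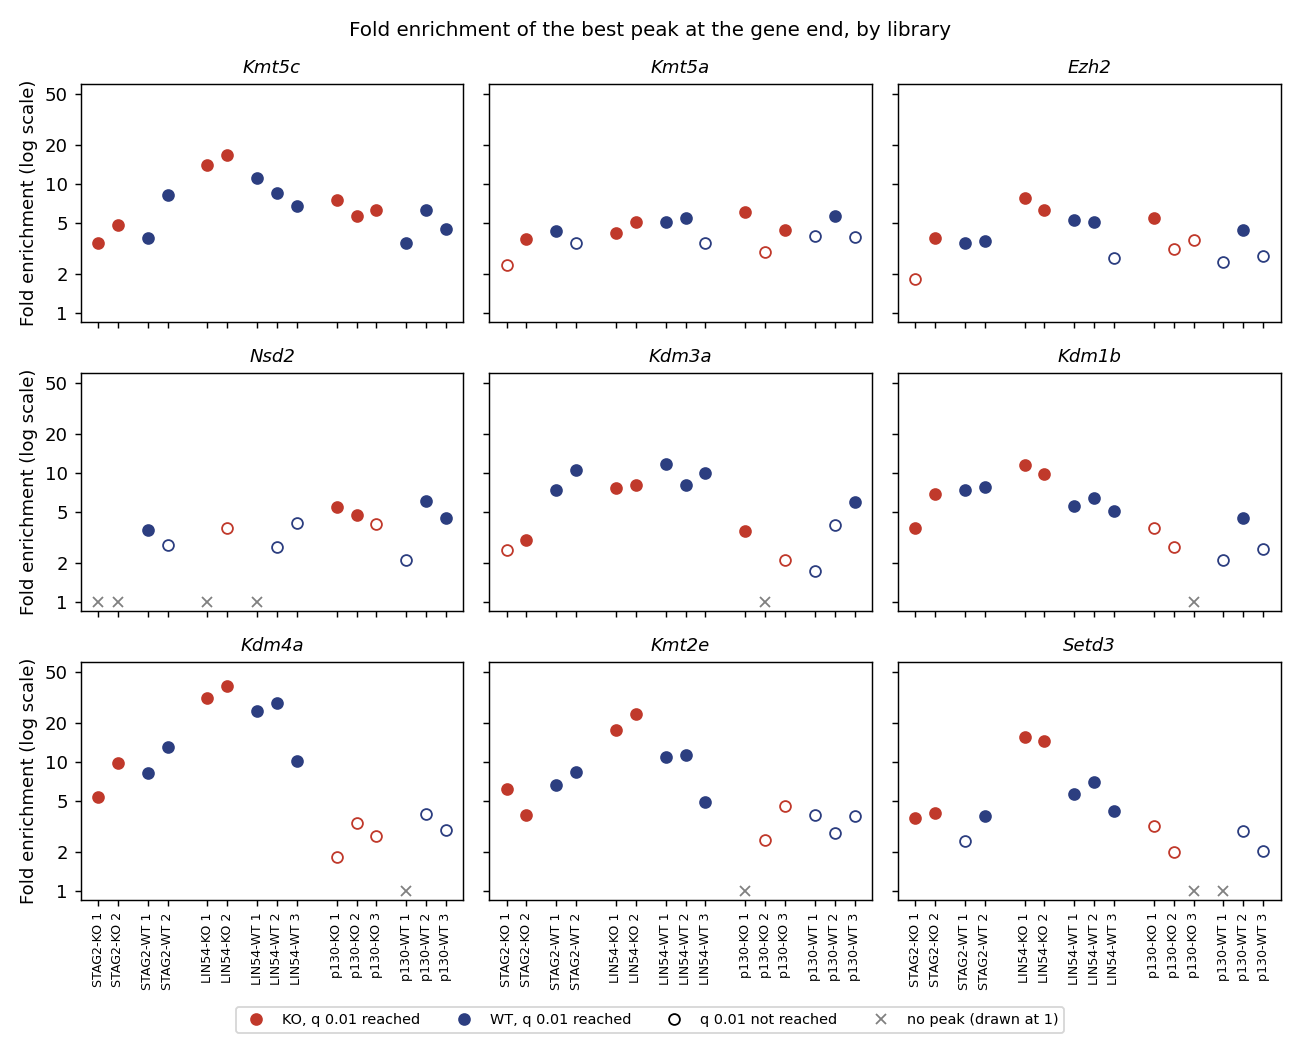
Fold enrichment of the best gene-end peak (log axis) of 9 genes in the 15 libraries, KO (red) left of WT (blue) for STAG2, LIN54 and p130 in turn; filled points reach q 0.01, open points do not, and crosses drawn at 1 mark libraries with no peak. Kdm4a reaches 39.0 with LIN54 and at most 3.93 with p130, while Nsd2 has its filled points mainly with p130.

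Kdm4a, a JmjC demethylase of trimethylated H3K9 and H3K36, had the highest mean LIN54 and STAG2 folds, in both genotypes, among those present in all libraries of the group. Its LIN54 fold was 31.4 and 39.0 in KO libraries, against 25, 28.5 and 10.1 in WT libraries, giving 35.2 ± 5.39 (SD, n = 2) in KO and 21.2 ± 9.74 (SD, n = 3) in WT. These folds rested on 104 and 104 fragments at the summit in KO libraries, against 67, 72 and 28 in WT libraries. It ranked 14 and 16 by p among the 10386 and 10863 genes with a peak in the LIN54-KO libraries, against 7, 10 and 108 of 10328, 10809 and 9915 in the LIN54-WT libraries. The STAG2 fold was 5.31 and 9.76 in KO libraries, against 8.23 and 13.1 in WT libraries. All 9 summits lay 89 to 223 bp inside the gene (chr4:118136957-118180090), past its start site at base 118180043, and 1 of the 9 falls within the promoter shown above. With p130 the same gene end had folds of 1.81, 3.37 and 2.64 in KO libraries, none at q 0.01, against no peak, 3.93 and 2.97 in WT libraries, of which none reached q 0.01 either.

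Antibodies thus ranked the family differently. Kdm4a held the best mean rank by p of the 59 with STAG2 and with LIN54 in both genotypes, and Kmt5c with p130 in both. The genes that followed were Kdm1b, Kmt5c, Kmt2b and Setd3 in STAG2-KO, against Kdm1b, Kdm3a, Kmt2b and Kmt2e in STAG2-WT. With LIN54 they were Kmt5c, Kmt2e, Setd3 and Kdm5a in KO, against Kmt5c, Kdm3a, Kmt2e and Setd3 in WT. With p130 they were Nsd2, Kmt5a, Ezh2 and Setdb2 in KO, against Kmt5a, Kmt2e, Ezh2 and Kdm4b in WT, where Nsd2 ranked 7945 in replicate 1 and 197 and 343 in replicates 2 and 3. All 5 genes marked at q 0.01 in every STAG2-KO library (Kdm1b, Kdm4a, Kmt2e, Kmt5c and Setd3) were among the 18 marked in every LIN54-KO library, of which they made up 27.8%; over all genes, 389 of 415 (93.7%) and of 3450 (11.3%) were shared. Likewise 7 of the 11 genes marked in every STAG2-WT library (63.6%) were among the 8 marked in every LIN54-WT library (87.5%); over all genes, 810 of 2750 (29.5%) and of 1030 (78.6%) were shared. The p130 libraries belong to other batches than the STAG2 and LIN54 libraries, so antibody and batch cannot be told apart.

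The other demethylases were led by Kdm1b, Kdm3a, Kdm5a and Kdm4b. Kdm1b, the flavin-dependent H3K4 demethylase LSD2, had a LIN54 fold of 11.5 and 9.74 in KO libraries, against 5.54, 6.39 and 5.04 in WT libraries, without overlap. Its LIN54 rank percentiles did overlap, at 4.62 to 6.17 in KO against 5.46 to 7.14 in WT. All 10 of its q 0.01 summits also lay within 500 bp of the end of Tpmt, the thiopurine methyltransferase gene. Its paralogue Kdm1a, or LSD1, reached q 0.01 in STAG2-WT replicate 1 alone, at 4.28. Kdm3a, which removes mono- and dimethyl H3K9, had a STAG2 fold of 2.53 and 3.00 in KO libraries, against 7.40 and 10.5 in WT libraries. With LIN54 its fold was 7.64 and 8.08 in KO libraries, against 11.8, 8.11 and 9.91 in WT libraries, so Kdm3a lay lower in KO with both antibodies. Its p130 peak reached q 0.01 in KO replicate 1 at 3.54 and in WT replicate 3 at 5.92.

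Kdm5a, a JmjC demethylase of trimethylated H3K4 first known as a partner of the retinoblastoma protein, had a LIN54 fold of 15 and 12.1 in KO libraries, against 4.79, 7.99 and 2.79 in WT libraries, again without overlap. Of its 5 q 0.01 summits, 3 were also within 500 bp of the end of Ccdc77. Setd3, a SET domain enzyme that methylates a histidine of actin, stood close to it: its LIN54 fold was 15.6 and 14.5 in KO libraries, against 5.67, 7.01 and 4.16 in WT libraries, and all 8 of its q 0.01 summits also lay within 500 bp of the end of Ccnk, the cyclin K gene. The LIN54 rank percentiles of Kdm5a overlapped, at 2.63 to 4.71 in KO against 4.39 to 38.7 in WT. Those of Setd3 did not, at 1.57 to 2.05 in KO against 3.89 to 9.13 in WT. Neither Kdm5a nor Setd3 had a q 0.01 peak with p130. With STAG2 neither gene was lower in KO throughout. Kdm5a had STAG2 folds of 3.33 and 3.73 in KO, of which 1 reached q 0.01, against a single WT peak at 2.50, which did not. Setd3 had STAG2 folds of 3.65 and 4.02 in KO, both at q 0.01, against 2.43 and 3.81 in WT, of which 1 reached it. Of 7 CoREST partners of LSD1 listed, 5 had a q 0.01 peak in at least 1 library, against 41.3% of all genes, and Hmg20b led with 8 libraries.

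Kdm6b, the inducible H3K27 demethylase JMJD3, shows how far the outer ends can miss a peak. It had no q 0.01 peak at its ends, yet a summit 1399 to 1447 bp inside the gene (chr11:69398508-69420367) reached q 0.01 in 8 of the 9 STAG2 and LIN54 libraries. Its fold there was 15.7 and 13.6 in LIN54-KO, against 6.89, 12.8 and 9.79 in LIN54-WT. With STAG2 it was 6.62 and 5.63 in KO, against 9.93 in WT replicate 2. In STAG2-WT replicate 1 the nearest q 0.01 summit was 2559 bp inside, at 7.17.

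Of the 4 bladder cancer genes, Kdm6a and Kmt2d have outer ends that are not their start sites, so both positions were read. Kdm6a encodes the H3K27 demethylase UTX and lies at chrX:18160862-18279936; its RefSeq start site, at base 18162575, is 1713 bp inside the outer end. Its promoter, with no E2F-type or CHR match, is shown because the peaks of the gene fall on it.
Kdm6a, chrX:18162325-18162624, plus strand: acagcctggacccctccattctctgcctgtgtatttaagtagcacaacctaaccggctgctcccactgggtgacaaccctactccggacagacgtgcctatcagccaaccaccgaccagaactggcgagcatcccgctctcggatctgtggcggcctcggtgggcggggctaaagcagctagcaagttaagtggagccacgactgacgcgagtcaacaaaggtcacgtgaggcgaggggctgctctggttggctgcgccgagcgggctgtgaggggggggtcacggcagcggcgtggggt
At the outer ends Kdm6a had deposited peaks in STAG2-WT replicate 2, at 2.12, and LIN54-WT replicate 2, at 2.55, and none at q 0.01. Within 500 bp of the start site it had deposited peaks in 9 libraries. The LIN54 fold there was 3.24 and 3.23 in KO libraries, which missed q 0.01, against 5.05, 5.26 and 2.18 in WT libraries, of which the first pair reached it with q of 2.55e-05 and 6.76e-05. The STAG2 fold was 2.11 in KO replicate 2, with no peak in replicate 1, against 2.83 and 4.80 in WT libraries, the second at q 2.64e-05. In STAG2-WT replicate 1 a further q 0.01 summit, at 4.38, lay 903 bp upstream of the start site. The p130 antibody gave a peak in WT replicate 3 alone, at 2.09. All 3 libraries at q 0.01 within 500 bp of the start site were WT. In the deposited lists the peaks on X were 0.744% or less of those in STAG2-KO and LIN54-KO libraries against 1.00% or more in STAG2-WT and LIN54-WT libraries. At q 0.01 the share of X genes marked was 0.00% and 0.828% in STAG2-KO against 9.21% and 6.21% in STAG2-WT. With LIN54 it was not lower in KO, at 8.80% and 6.73% against 6.21%, 6.31% and 1.55% in WT. The part of these shares in the Kdm6a values was not tested.

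Kmt2d, the MLL4 methyltransferase that writes monomethyl H3K4 at enhancers, lies on the minus strand of chr15:98831669-98874077 with its RefSeq start site 2872 bp inside. Within 500 bp of that start site it had 4 deposited peaks, with folds of 2.06 to 3.02, and none at q 0.01. Its 2 q 0.01 peaks at an outer end, 4.32 in LIN54-KO replicate 1 and 3.34 in STAG2-WT replicate 1, were both at the 3′ end and within 500 bp of the end of Prkag1, a subunit gene of AMP-activated kinase. Further q 0.01 summits stood 1494 bp downstream of the start site in STAG2-WT replicate 1, at 6.07, and 1158 bp upstream of it in STAG2-WT replicate 2, at 4.37. Kmt2c, the paralogue MLL3, had deposited peaks in 7 libraries, with folds of 1.97 to 2.54, and none at q 0.01 at an end. Around its start site q 0.01 summits stood 863 bp upstream in STAG2-WT replicate 2, at 4.23, 1553 bp downstream and at position -1855 in STAG2-WT replicate 1, at 5.53 and 3.96, and 730 bp upstream in p130-WT replicate 2, at 5.22.

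Kmt2a, or MLL1, had the most q 0.01 peaks at its start of these 4 genes. The LIN54 fold was 6.32 and 9.87 in KO libraries, both at q 0.01, against 2.44, 3.47 and no peak in WT libraries, of which replicate 2 reached q 0.01. The STAG2 antibody gave no peak and 3.35 in KO libraries, against no peak and 4.29 in WT libraries, the last at q 0.01. In STAG2-WT replicate 1 a q 0.01 summit with a fold of 7 lay 1362 bp downstream of the start site, outside the window. The 4 summits at q 0.01 within the window lay 177 to 320 bp upstream of the start site. No p130 peak at Kmt2a, Kmt2d or Kdm6a reached q 0.01. Among 6 other chromatin genes mutated in bladder cancer, 5 had a q 0.01 peak at an end in at least 1 library, against 41.3% of all genes. They ranged from Arid1a with 4 libraries to Stag2 itself with 1, a STAG2-WT library, and Ep300 had none.

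**Figure D4:**
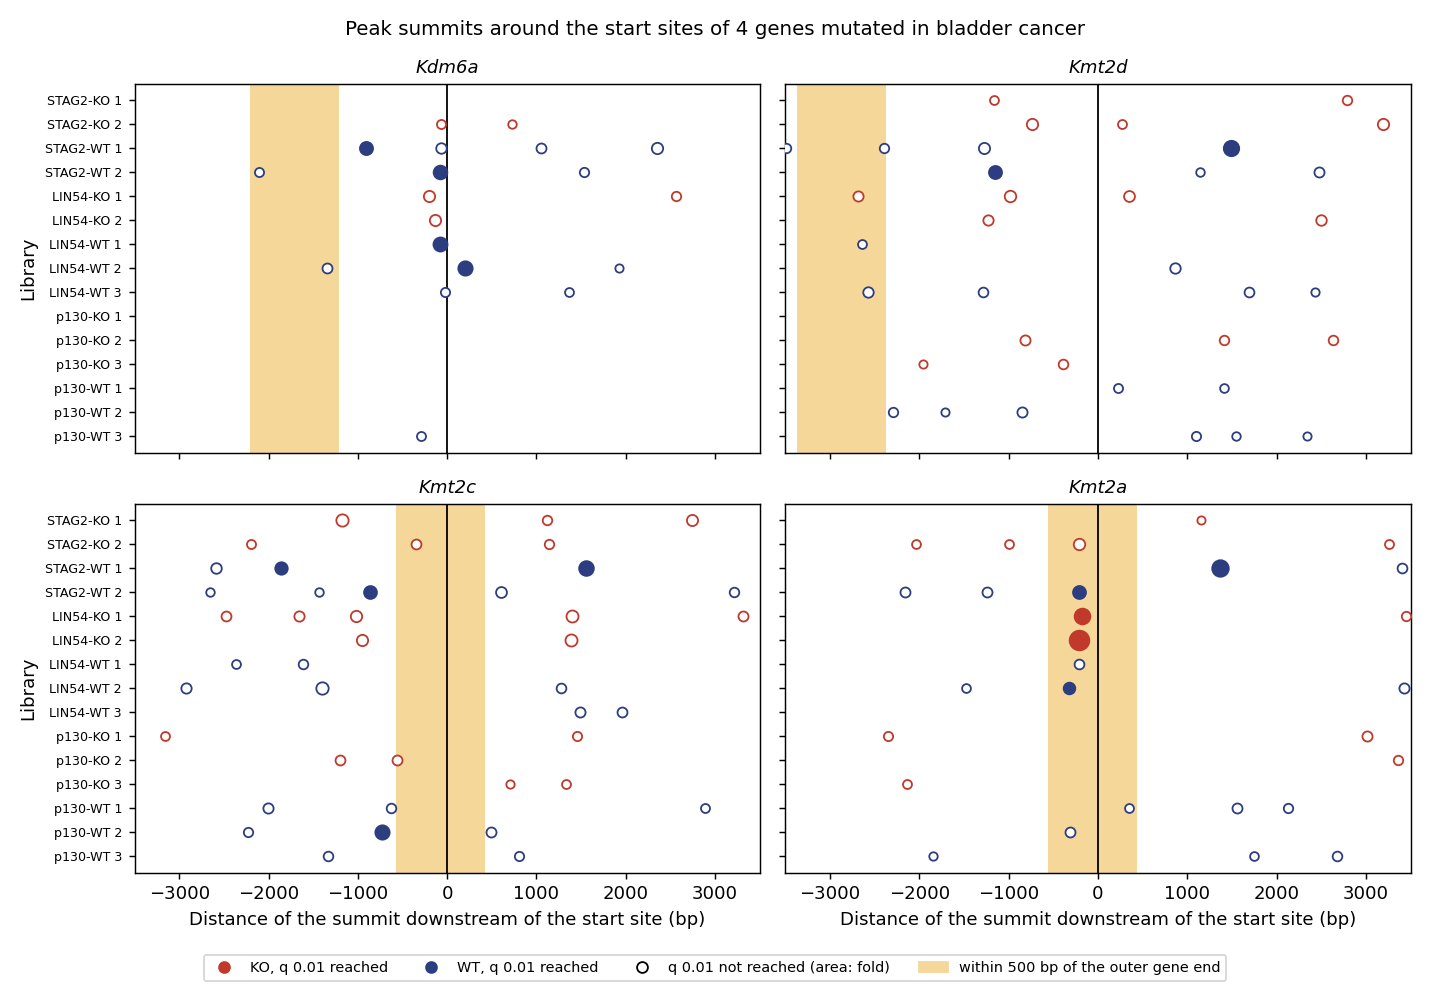
Peak summits within 3500 bp of the start sites of Kdm6a, Kmt2d, Kmt2c and Kmt2a in the 15 libraries (rows, KO above WT within each antibody), against distance downstream of the start site; circle area is proportional to fold, filled circles reach q 0.01 and the shaded band lies within 500 bp of the outer gene end. The Kdm6a summits cluster at the start site, outside the band, and the 4 filled Kmt2a circles inside the band belong to LIN54-KO replicates 1 and 2, LIN54-WT replicate 2 and STAG2-WT replicate 2.

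The same reading at start sites changed the picture for other genes. In 8 of the 44 genes with a RefSeq start site, no start site lay within 500 bp of the outer 5′ end. At start sites 32 of the 44 had a q 0.01 peak in at least 1 library, against 28 of the 44 at the outer ends; over the 17492 genes with a start site the shares were 45.1% and 41.9%. Prdm10, a PR domain transcription factor, was the main case: its outer ends had 3 deposited peaks and none at q 0.01, while its start site 4439 bp inside had a deposited peak in all 15 libraries and a q 0.01 peak in 11. The LIN54 fold there was 17.3 and 15.5 in KO libraries, against 12.8, 13.7 and 5.79 in WT libraries, and the STAG2 fold was 4.93 and 6.70 in KO libraries, against 7.54 and 13.2 in WT libraries. The p130 fold was 5.70, 4.22 and 3.63 in KO libraries, the first pair at q 0.01, against 2.51, 3.26 and 3.22 in WT libraries, none at q 0.01, so the KO values lay above the WT values. Setd4 likewise had 3 q 0.01 libraries at its start site and none at its outer ends: STAG2-KO replicate 2 at 4.18, and STAG2-WT replicates 1 and 2 at 6.97 and 3.74.

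On X and Y, besides Kdm6a and Suv39h1, Kdm5c reached q 0.01 in LIN54-WT replicate 1, at 5.83. This demethylase of trimethylated H3K4 had LIN54 folds of 2.06 and no peak in KO libraries, against 5.83, 2.38 and 3.10 in WT libraries. Its STAG2 peak was absent from both KO libraries and had folds of 2.89 and 1.7 in WT libraries. With p130 it had 2.43 and 2.29 in KO replicates 1 and 3, both at the 3′ end and neither at q 0.01, against no peak in the 3 WT libraries. Kdm5d, its Y-linked counterpart, had deposited peaks in 4 libraries, none at q 0.01: both LIN54-KO libraries at 2.06 and 2.56, STAG2-KO replicate 1 at 2.56 and STAG2-WT replicate 1 at 2.55. LIN54-KO libraries held 36 and 174 peaks on Y, against 8 to 30 in LIN54-WT libraries. The part of these X and Y shares in the calls at Kdm5c and Kdm5d was not tested.

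With the STAG2 antibody, fewer of the 59 genes were marked in Stag2-KO than in Stag2-WT urothelium. At q 0.01, 5 and 13 were marked in KO libraries, against 26 and 17 in WT libraries, with means of 9 ± 5.66 and 21.5 ± 6.36 (SD, n = 2 each), a difference of -12.5. Genes marked in every library numbered 5 in KO, where the share over all genes was 1.90%, and 11 in WT, where it was 12.6%; in the deposited lists they numbered 20 (25.5% of all genes) and 31 (35.0%). Over all protein-coding genes, 517 and 2174 were marked in KO libraries, against 6411 and 3819 in WT libraries, so the count over all genes was likewise lower in KO. The two-sided exact permutation p of that total was 0.33, the smallest that 2 libraries against 2 allow.

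The genes marked at q 0.01 in every STAG2-WT library and no STAG2-KO library were Kdm4b, Prdm4 and Setd5, against a share of 6.19% over all genes, and the reverse call held for no gene of the 59 (0.0320% of all genes). Kdm4b, a paralogue of Kdm4a, had folds of 1.91 and 2.61 in KO libraries, against 3.13 and 4.78 in WT libraries. Prdm4, a PR domain transcription factor, had no peak and 2.87 in KO libraries, against 5.09 and 4.54 in WT libraries. Setd5 had 2.72 and no peak in KO libraries, against 5.48 and 7.87 in WT libraries, but its summits were at an outer end 27673 bp from its RefSeq start site and next to the Gt(ROSA)26Sor locus. In the deposited lists Kdm1a, Kdm2a, Kdm5c and Nsd2 had peaks in both WT libraries and in neither KO library (6.44% of all genes; the reverse, 2.03%, held for none). Single libraries weighed on these counts: without STAG2-KO replicate 1 the genes marked in every KO library were 13, without STAG2-WT replicate 1 or 2 those marked in every WT library were 17 or 26, and those in WT alone were 7 without STAG2-KO replicate 2, 6 without STAG2-WT replicate 1 and 17 without STAG2-WT replicate 2.

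With the LIN54 antibody the counts ran the other way. At q 0.01, 25 and 19 of the 59 genes were marked in KO libraries, against 14, 16 and 8 in WT libraries, with means of 22 ± 4.24 (SD, n = 2) in KO and 12.7 ± 4.16 (SD, n = 3) in WT, a difference of 9.33 without overlap. Genes marked in every library numbered 18 in KO (15.8% of all genes) and 8 in WT (4.71%), and in the deposited lists 33 (35.5%) and 20 (23.8%). Over all genes, 4728 and 4378 were marked in KO libraries, against 2285, 2875 and 1482 in WT libraries, with an exact permutation p of 0.1, the smallest possible here. In the deposited lists the totals over all genes overlapped, at 10386 and 10863 in KO against 10328, 10809 and 9915 in WT. The exact permutation p of the deposited totals was 0.4. Without LIN54-WT replicate 3, which had the fewest calls, 13 of the 59 were marked in every WT library.

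Setd1a, Setd2 and Setdb2 were marked at q 0.01 in every LIN54-KO library and no LIN54-WT library (3.99% of all genes), and the reverse call held for none (0.0183%). Setd1a, the paralogue of Setd1b, had folds of 6.51 and 6.30 in KO libraries, against no peak, no peak and 3.95 in WT libraries. Setd2 had 5.76 and 5.55 in KO libraries, against no peak, 3.13 and 3.90 in WT libraries. Setdb2 had 5.24 and 4.38 in KO libraries, against 2.41, no peak and no peak in WT libraries. Without LIN54-KO replicate 2 this call held for 10 genes, and without LIN54-WT replicate 2 for 6. In the deposited lists Kdm5d had a peak in KO alone (2.04% of all genes) and Kmt2c in WT alone (1.38%). The Kmt2c peaks, with folds of 2.10 to 2.36, were at its 3′ end. Within 3500 bp of its start site both genotypes had deposited LIN54 peaks, with folds of up to 3.71 in KO and 3.9 in WT, none at q 0.01. Setd1a and Setd2 were also marked with STAG2 at q 0.01, Setd1a at its start site with 4.15 in KO replicate 2 and no peak in KO replicate 1, against 4.57 and 3.25 in WT, the last of which missed q 0.01, and Setd2 at 4.63 in KO replicate 2 against 4.30 in WT replicate 2. The best STAG2-WT peaks of Setd1a, at 6.76 and 5.47, were at its 3′ end, within 500 bp of the end of Hsd3b7.

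With the p130 antibody the counts of the genotypes overlapped. At q 0.01, 5, 2 and 2 of the 59 genes were marked in KO libraries, against 1, 6 and 3 in WT libraries, with means of 3 ± 1.73 and 3.33 ± 2.52 (SD, n = 3 each). Kmt5c was the single gene marked in every library of KO (0.681% of all genes) and of WT (0.758%), and no gene was marked in one genotype alone (0.00457% for KO and 0.0228% for WT). In the deposited lists 11 genes were marked in every KO library (8.88%) and 13 in every WT library (14.3%), and Kdm4b had a peak in all WT libraries and no KO library (2.42% for WT alone, 0.854% for KO alone). Without p130-KO replicate 2 or 3 the genes marked in every KO library were 2, and within batch 3, without p130-WT replicate 1, those marked in every WT library were 2. The exact permutation p for the number of all genes marked at q 0.01 was 0.5. In the deposited lists the totals over all genes did not overlap, at 7535, 7823 and 7306 in KO against 9829, 10199 and 8316 in WT. The exact permutation p of the deposited totals was 0.1, the smallest possible here.

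Gene by gene, the two-sided exact permutation test of marked against unmarked libraries could not go below 0.33 for STAG2 and 0.1 for LIN54 and p130. Accordingly 0 of 21887 genes had a p under 0.05 with any antibody, and the smallest Benjamini-Hochberg adjusted p was 1. The genotype calls above describe these libraries and carry no test of their own. Replicates are labelled as biological, but nothing says whether they came from separate mice.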

How the data were processed

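CUT&RUN libraries were made from peeled urothelium of Stag2-KO and Stag2-WT mice, and 15 of the 17 labelled samples have a peak list; the 2 pMNase samples were not analysed here. The mm10 genome, Bowtie2, bcl2fastq and MACS2 are named, per the submitters' processing notes, with parameters not given in the sources used here. The authors deposited 1 MACS2 narrowPeak list per sample, not pooled, with peaks of p up to 0.05. Its deposited columns hold a score, the fold enrichment (a ratio at the summit over local background), the -log10 p and the -log10 q. Fragment counts were recovered from fold and p at each summit, and 502 of 502 gave whole counts within 0.002 on the log10 scale.

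Summits were matched to gene ends (window 500 bp) in the RefSeq table (GRCm38.p6) by symbol; promoters come from RefSeq, and 44 of 59 genes matched. A gene was marked if its best peak by p was in the deposited list, or reached -log10 q of 2. Groups follow the labels. Shares were set beside those of all genes, with two-sided exact permutation tests and Benjamini-Hochberg adjustment (SciPy 1.17.1, pandas 2.3.3, Python 3.11.15). The genes, lists and naming rule (bladder cancer, cell cycle linked and X- or Y-linked genes, the 5 best ranked per group, those marked in 1 genotype alone, those marked most or least) were chosen with earlier results of these data known. Gene-level code was tested on simulated data. Alternatives were windows of 250 and 1000 bp, -log10 q of 5, the 20000 best peaks, 5′ ends alone, each library left out, batch 3 alone and a replicate block. The replicate numbers were not taken as pairs, and the labels do not say whether they are.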

Additional observations from a re-analysis of the deposited data

Results flagged for a closer look

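The number of the 59 genes marked at q 0.01 moved in opposite directions between genotypes with different antibodies. With STAG2 the KO mean minus the WT mean was -12.5 genes, and both KO libraries lay below both WT libraries. With LIN54 it was 9.33 genes, and both KO libraries lay above all 3 WT libraries. The difference between the antibodies was not tested, and the number of all protein-coding genes marked at q 0.01 moved the same way with each antibody.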

How the results depend on the processing

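Of 174 values recomputed under an alternative, 144 kept their direction and stayed within the spread or 1.5 times the reported value, 25 moved further and 5 reversed. For STAG2, the genes marked in every KO library were 3 with a 250 bp window and 0 at a -log10 q of 5, and those marked in every WT library were 7 with a 250 bp window. Those in WT alone were 6 with a 1000 bp window and 1 at 5′ ends alone, and the mean difference was -19.5 with a 1000 bp window. For LIN54, at a -log10 q of 5, 5 genes were marked in every WT library and 5 in KO alone. For p130, those marked in every WT library were 0 at a -log10 q of 5 and 2 in batch 3 alone. The p130 mean difference, -0.33 as reported, was 0.33 at a -log10 q of 5 and at 5′ ends alone, and -3.33 with the 20000 best peaks per library; the cause was not tested. Leaving out 1 library at a time gave the following ranges at q 0.01. For STAG2 they were 5 to 13 genes in every KO library, 11 to 26 in every WT library, 0 to 1 in KO alone, 3 to 17 in WT alone and -17 to -8 for the mean difference. For LIN54 they were 18 to 25, 8 to 13, 3 to 10, 0 to 0 and 6.33 to 12.3. For p130 they were 1 to 2, 1 to 2, 0 to 0, 0 to 0 and -1.5 to 1; the p130 difference reversed to 0.167 without KO replicate 2 or KO replicate 3 and to 1 without WT replicate 2. In the deposited lists the mean differences ranged from -13 to -6 for STAG2, 6.5 to 9 for LIN54 and -10 to -2.5 for p130. With the replicate number as a block the mean differences at q 0.01 were -12.5 for STAG2, 7 for LIN54 and -0.33 for p130. Replicate 3 of LIN54-WT has no partner, and calls of single genes were not recomputed with the block. Same-numbered libraries correlated at 0.179 (STAG2), 0.0149 and 0.0654 (LIN54) and -0.0973 to 0.0974 (p130) in their deviations across genes, so the numbers were not taken as pairs. Reads per library are not given, so a library with few q 0.01 peaks cannot be told apart from a shallow one.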
